A study of Mus musculus with 6 samples.

Results

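The bone morphogenetic protein (BMP) receptors and SMADs were followed here as a family of 10 genes: the ligand gene Bmp4, the receptor genes Bmpr1a and Bmpr2, and the intracellular transducer genes Smad1 to Smad7. Every non-control probe carrying one of these gene names in the scanner files was taken, which gave 19 of the 41174 probes on the array. Of these, 15 probes passed the filter on dim signals and were tested, and each of the 10 genes had at least 1 tested probe. The whole array had 21058 tested probes.

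BMP ligands bind a complex of type I and type II serine/threonine kinase receptors, and the activated type I receptor phosphorylates SMAD1, SMAD5 and SMAD9. These join SMAD4 and enter the nucleus, while activin, NODAL and TGF-beta receptors use SMAD2 and SMAD3 with the same SMAD4. SMAD6 and SMAD7 are inhibitory members that act on the receptors and on complex formation. In the mouse embryo, BMP4 from the extraembryonic ectoderm induces primordial germ cells in the epiblast, and loss of Smad1 or Smad5 impairs their formation.

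RNA came from primordial germ cells made in vitro from embryonic stem cells of the V6.5 line, on a mixed C57BL/6 and 129SV background, after 12 days in differentiation medium. All 3 groups carried the same construct, in which the germ cell RNA-binding protein DAZL is joined to GFP and a V5 tag. RNA crosslinked to protein by ultraviolet light was recovered by immunoprecipitation (IP) against GFP (2 arrays) or against PABP1, the cytoplasmic poly(A)-binding protein (2 arrays), and total input RNA was hybridised to 2 arrays with no antibody. The GFP IP thus reads RNA that came down with tagged DAZL, and the PABP1 IP and the input are the controls the study names. The labels give no untagged cells, and do not say whether replicates are separate cultures, so the spread that the p-values rest on is that of these arrays and may be technical.

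The share of spots well above background was 41.5% to 52.6% per array, with 0 saturated spots. Values below are the processed signal of a probe divided by the 75th percentile of the processed signal on its array, called scaled signal. They compare arrays for 1 probe, and levels of different probes are not comparable. Dazl, the gene of the tagged protein, read 0.851 and 0.777 in input, 0.230 and 0.235 in the PABP1 IP, and 8.73 and 14.4 in the GFP IP. Of 9 germ cell markers with a probe, 8 were well above background on both input arrays, and Ddx4, a later germ cell marker, was on neither. Markers of other cells were present: the summed scaled signal of 7 cardiac and smooth muscle markers was 48.8 to 51.1 in input, 99.0 to 104 in the PABP1 IP and 18.3 to 20.1 in the GFP IP, and that of 5 fibroblast markers was 62.2 to 91.6, 75.6 to 85.7 and 22.8 to 43.5. In the same order of groups, 4 trophoblast markers summed to 12.3 to 12.8, 19.1 to 21.6 and 5.51 to 6.33, and 6 neural markers to 13.7 to 15.5, 4.72 to 7.37 and 14.3 to 16.2. The neural sum hides opposite moves. Tubb3 rose from 4.21 and 3.21 in input to 14.2 and 11.2 in the GFP IP, while Nes fell from 10.4 and 9.80 to 1.76 and 2.69. Sox1 and Neurog1 were also lower in the GFP IP than in input. The higher cardiac and smooth muscle sum in the PABP1 IP was mostly that of Myl7, at 28.9 and 26.3 in input and 82.9 and 77.4 there. Tnni3 fell from 7.94 and 8.10 to 3.21 and 2.66. Of 11 tested probes of that list, 1 was called higher and 2 lower in the PABP1 IP than in input, beside 30.8% and 23.9% of all probes. Other sums rose from input to the GFP IP. For 5 endothelial and blood markers they were 1.63 to 1.98, 1.04 to 1.10 and 7.50 to 8.20. Pecam1 made up most of this, with 1.40 and 1.81 in input and 7.38 and 8.06 in the GFP IP. Cdh5, Kdr and Hba-x were well above background on 0 of 6 arrays. Hbb-y, well above background on neither input array, read 0.109 and 0.0715 in input and 0.0570 and 0.0865 in the GFP IP. The rise was thus that of Pecam1, not of the list. The 5 pluripotency markers summed to 174 to 176, 295 to 325 and 240.0 to 334. In the GFP IP, Zfp42, Sox2 and Nanog were above input, with Zfp42 at 86.0 and 78.8 in input and 216 and 156 there. Pou5f1 went from 61.8 and 69.6 to 60.3 and 34.8, and Esrrb from 17.5 and 15.6 to 14.4 and 8.53. The higher sum in the PABP1 IP was mostly that of Pou5f1, at 173 and 199. The 9 germ cell markers summed to 119 to 121, 306 to 331 and 146 to 159. This sum also hides opposite moves. From input to the GFP IP, Kit rose from 5.66 and 5.99 to 37.4 and 55.7, and Dazl, Tfap2c, Prdm1 and Dppa3 rose too. Ifitm3 fell from 36.0 and 31.2 to 15.8 and 13.8, and Nanos3 and Pou5f1 were also lower. In the PABP1 IP, Pou5f1 (173 and 199) and Ifitm3 (112 and 110) made up most of the sum. Dazl, Prdm1, Tfap2c and Kit were below input there. Of 7 visceral endoderm markers, 0 were well above background on both input arrays. The part of these other cells in the results below was not tested. In RNA from a mixed culture, which cells hold an RNA and how much of it is recovered per cell cannot be told apart.

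On the scale of the 75th percentile, the transcripts of Bmpr1a, Smad1, Smad5 and Smad4 were recovered more with tagged DAZL than in either control. Between the IPs on the spike-in scale described below, the brighter probes of Bmpr1a, Smad1 and Smad5 lost their calls, and both Smad4 probes reversed. The second Smad5 probe kept its call there, but it entered the test only through its level in the GFP IP, so this is a description. The transcripts of Bmp4 and Smad6 were instead recovered more with PABP1 than in input or with DAZL. Smad2 and Smad3 did not pass the test against input in either IP, and Smad7 did not pass it in any comparison. The values and their limits follow by the role of each gene.

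**Figure D1:**
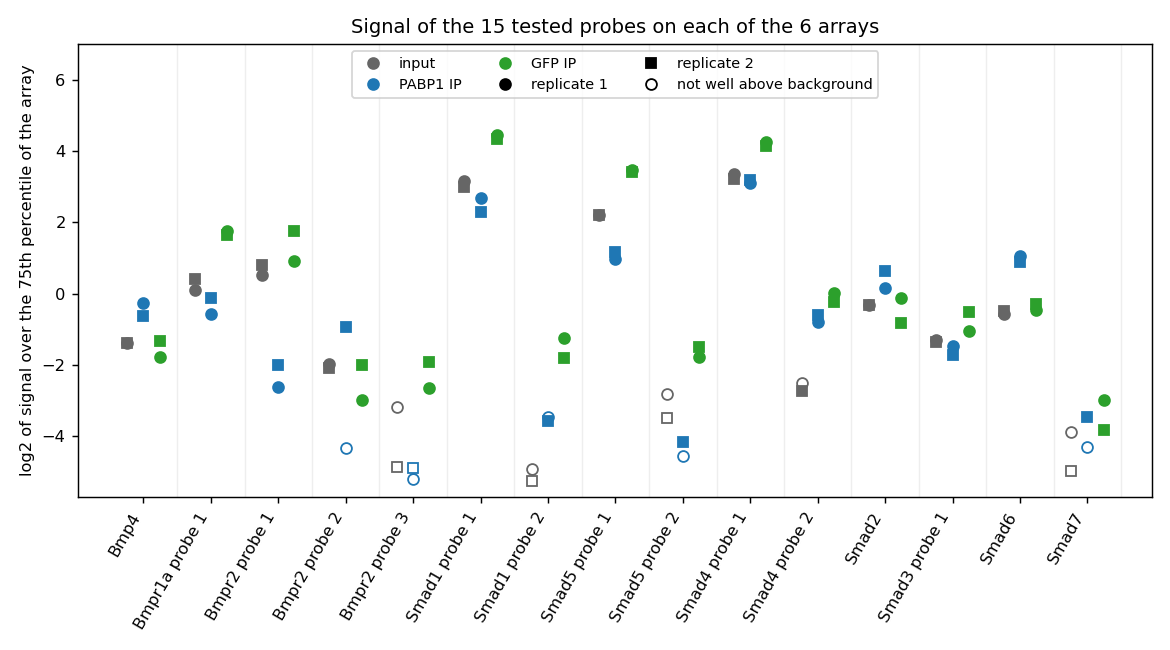
Scaled signal on a log2 axis for each of the 15 tested probes on each array, coloured by group, with circles for replicate 1, squares for replicate 2 and open symbols where the probe was not well above background. The GFP IP points lie above all others for Bmpr1a probe 1 and for both probes each of Smad1, Smad5 and Smad4, while the PABP1 IP points lie highest for Bmp4 and Smad6.

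Bmp4, which encodes the ligand, is printed as 10 spots of 1 probe on every array, so it has the most repeated measurement of the family. It read 0.384 and 0.384 in input, 0.829 and 0.645 in the PABP1 IP, and 0.295 and 0.400 in the GFP IP. Both PABP1 IP arrays were above the other 4 arrays, while the GFP IP arrays lay on either side of the input arrays. The PABP1 IP was 1.90-fold above input (log2 difference 0.93 ± 0.23, standard error from limma, 2 arrays per group, here and below; limma adjusted p = 0.0201). The GFP IP was 2.13-fold below the PABP1 IP (-1.09 ± 0.23; limma adjusted p = 0.00999) and did not pass the test against input (-0.16 ± 0.23; limma adjusted p = 0.576). The 10 spots of an array varied by a coefficient of variation of 2.57% to 11.7%, which measures error within an array and adds no replicate. The PABP1 IP call against input was lost without input replicate 1, input replicate 2 or PABP1 IP replicate 1, with limma adjusted p of 0.0896, 0.0917 and 0.0799, and with a normexp background correction the difference was 0.21 (limma adjusted p = 0.340).

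**Figure D2:**
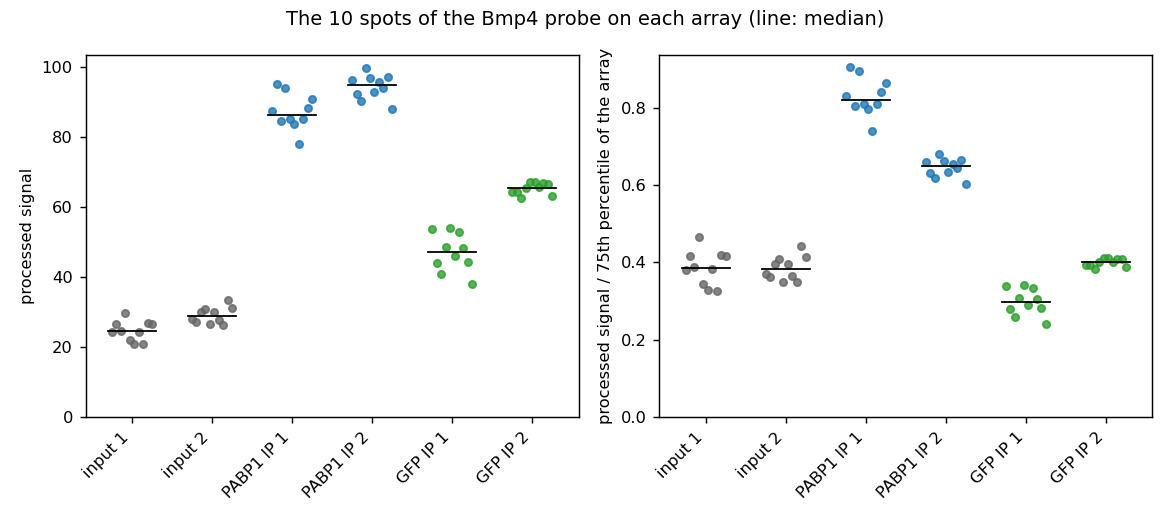
Processed signal (left) and scaled signal (right) of the 10 spots of the Bmp4 probe on each array, with the median as a line. On the left the PABP1 IP spots run from 77.8 to 99.5 and the input spots from 20.7 to 33.3, and scaling leaves the PABP1 IP arrays highest.

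Bmpr1a encodes the type I receptor that binds BMP4. Its brighter probe (A_52_P17146) read 1.08 and 1.32 in input, 0.674 and 0.918 in the PABP1 IP, and 3.37 and 3.11 in the GFP IP. Both GFP IP arrays were above all 4 control arrays, and both PABP1 IP arrays were below both input arrays. Recovery with DAZL was 2.71-fold above input (1.44 ± 0.22; limma adjusted p = 0.00541) and 4.11-fold above the PABP1 IP (2.04 ± 0.22; limma adjusted p = 0.00117). The PABP1 IP did not pass the test against input (-0.60 ± 0.22; limma adjusted p = 0.0696), although it did with slide as a block (-0.74; limma adjusted p = 0.0281). A second Bmpr1a probe was well above background on 0 of 6 arrays and was not tested.

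Bmpr2 encodes the type II receptor that activates the type I receptor, and its 3 probes did not give 1 answer. Probe 1, designed on a cDNA clone that the files assign to Bmpr2, read 1.45 and 1.74 in input, 0.165 and 0.249 in the PABP1 IP, and 1.88 and 3.37 in the GFP IP. The PABP1 IP arrays were far below the other 4, and the GFP IP arrays were above both input arrays but differed from each other by 1.80-fold. For this probe the PABP1 IP was 7.84-fold below input (-2.97 ± 0.36; limma adjusted p = 0.00208), the lowest 2.80% of all tested probes, and the GFP IP was 12.4-fold above the PABP1 IP (3.64 ± 0.36; limma adjusted p = 0.000886). With spike-in scaling the PABP1 IP difference from input was -0.71 (limma adjusted p = 0.204). Against input the GFP IP did not pass (0.67 ± 0.36; limma adjusted p = 0.166).

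Probe 2, the one designed on the Bmpr2 reference mRNA, read 0.256 and 0.236 in input, 0.0499 and 0.526 in the PABP1 IP, and 0.126 and 0.252 in the GFP IP. Its PABP1 IP arrays differed by 10.5-fold, one below and one above every other array, and it passed the test in no comparison (limma adjusted p = 0.735, 0.674 and 0.920). Its direction between the GFP IP and the PABP1 IP turned with the array left out, from 1.83 without PABP1 IP replicate 2 to -1.56 without PABP1 IP replicate 1. Between GFP IP and PABP1 IP it was 2.33 on slide 1 and -2.06 on slide 2, each from 1 array against 1 and given with no test. Probe 3, also designed on a cDNA clone, was well above background on the GFP IP arrays only, at 0.159 and 0.267, and was at least 3.34-fold above the PABP1 IP. It entered the test only through its level in the GFP IP, so this bound is a description.

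Smad1 and Smad5 encode the transducers that BMP receptors phosphorylate, and both were highest in the GFP IP. The brighter Smad1 probe (A_51_P409260) read 9.01 and 7.96 in input, 6.36 and 4.90 in the PABP1 IP, and 21.8 and 20.4 in the GFP IP. The GFP IP arrays were above all 4 control arrays, and the PABP1 IP arrays were below both input arrays. Smad1 was 2.49-fold above input with DAZL (1.32 ± 0.20; limma adjusted p = 0.00494) and 3.78-fold above the PABP1 IP (1.92 ± 0.20; limma adjusted p = 0.00101). Between the PABP1 IP and input its difference lay at the threshold (-0.60 ± 0.20; limma adjusted p = 0.0501).

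The dimmer Smad1 probe was not well above background in input, and read 0.0908 and 0.0849 in the PABP1 IP and 0.427 and 0.286 in the GFP IP. It was at least 2.99-fold above input with DAZL and 3.98-fold above the PABP1 IP, where 1 of 2 arrays was well above background. It entered the test only through its level in the GFP IP, so these folds are a description. No fold is given between the PABP1 IP and input, and with normexp its log2 difference between the GFP IP and input was 0.11.

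For Smad5, the brighter probe (A_51_P107599) read 4.59 and 4.62 in input, 1.95 and 2.26 in the PABP1 IP, and 11.0 and 10.7 in the GFP IP. These 3 groups were fully apart, with the GFP IP highest and the PABP1 IP lowest. Smad5 was 2.36-fold above input with DAZL (1.24 ± 0.16; limma adjusted p = 0.00356), 2.19-fold below input in the PABP1 IP (-1.13 ± 0.16; limma adjusted p = 0.00349) and 5.16-fold higher in the GFP IP than in the PABP1 IP (2.37 ± 0.16; limma adjusted p = 0.000536). The PABP1 IP difference from input turned to 1.13 (limma adjusted p = 0.0438) when arrays were scaled to their spike-in control probes, and relative to the median of all probes it was -1.26.

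A second Smad5 probe was well above background on both GFP IP arrays, at 0.294 and 0.356, on 1 PABP1 IP array and on no input array. It was at least 2.77-fold above input with DAZL, and it was also higher on both GFP IP arrays than on the PABP1 IP arrays, at 0.0430 and 0.0557. It entered the test only through its level in the GFP IP, so this is a description. No fold is given between the PABP1 IP and input, and with normexp the difference between the GFP IP and input turned to -0.06. The remaining Smad5 probe was well above background on 2 of 6 arrays and was not tested.

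Smad4 encodes the partner shared by both branches of the pathway. Its brighter probe (A_52_P611867) read 10.2 and 9.34 in input, 8.61 and 9.18 in the PABP1 IP, and 19.2 and 17.7 in the GFP IP. The GFP IP arrays were above all control arrays, and input and the PABP1 IP lay next to each other. Smad4 was 1.89-fold above input with DAZL (0.92 ± 0.16; limma adjusted p = 0.00762) and 2.07-fold above the PABP1 IP (1.05 ± 0.16; limma adjusted p = 0.00333). The call against input was lost without input replicate 2 (0.85; limma adjusted p = 0.0589). Between the PABP1 IP and input the difference was -0.14 ± 0.16, with a 95% confidence interval of -0.54 to 0.27 (limma adjusted p = 0.516).

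The second Smad4 probe read 0.178 and 0.150 in input, 0.578 and 0.658 in the PABP1 IP, and 1.01 and 0.853 in the GFP IP. Both IPs were above both input arrays, so this probe and the brighter one differ in how they read the PABP1 IP. The second probe was 5.69-fold above input with DAZL (2.51 ± 0.19; limma adjusted p = 0.00156) and 3.78-fold above input in the PABP1 IP (1.92 ± 0.19; limma adjusted p = 0.00137), with 1 of 2 input arrays well above background. With normexp the PABP1 IP was 0.25 above input (limma adjusted p = 0.282). Its difference between the GFP IP and the PABP1 IP was 0.59 ± 0.19 (limma adjusted p = 0.0422), and that call was lost when any 1 of the 6 arrays was left out, with limma adjusted p of at least 0.0606.

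Smad2 and Smad3 encode the transducers of the activin, NODAL and TGF-beta branch. Smad2 read 0.796 and 0.802 in input, 1.12 and 1.57 in the PABP1 IP, and 0.924 and 0.571 in the GFP IP. The PABP1 IP arrays were highest, and the GFP IP arrays lay on either side of input. Smad2 was 1.83-fold lower in the GFP IP than in the PABP1 IP (-0.87 ± 0.30; limma adjusted p = 0.0494), and passed against input in neither IP (limma adjusted p = 0.714 with DAZL and 0.0892 with PABP1). The brightest Smad3 probe read 0.410 and 0.391 in input, 0.359 and 0.304 in the PABP1 IP, and 0.487 and 0.699 in the GFP IP. Its groups did not overlap, and it was 1.77-fold higher in the GFP IP than in the PABP1 IP (0.82 ± 0.23; limma adjusted p = 0.0269).

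Against input, Smad3 did not pass with DAZL (0.54 ± 0.23; limma adjusted p = 0.0994), although it did with slide as a block (0.73; limma adjusted p = 0.0174). In the PABP1 IP it was -0.28 ± 0.23 against input (limma adjusted p = 0.357). Between the GFP IP and the PABP1 IP, leaving out either input array, either PABP1 IP array or GFP IP replicate 2 lost the calls of both Smad2 and Smad3. The limma adjusted p without those arrays ran from 0.0549 to 0.177 for Smad2 and from 0.0536 to 0.0990 for Smad3. The other 2 Smad3 probes were well above background on 0 of 6 arrays and were not tested.

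Smad6 and Smad7 encode the inhibitory SMADs. Smad6 read 0.673 and 0.712 in input, 2.08 and 1.84 in the PABP1 IP, and 0.728 and 0.816 in the GFP IP. Both PABP1 IP arrays were above the other 4, and the GFP IP arrays were just above input. Smad6 was 2.82-fold above input with PABP1 (1.50 ± 0.17; limma adjusted p = 0.00178) and 2.53-fold lower in the GFP IP than in the PABP1 IP (-1.34 ± 0.17; limma adjusted p = 0.00175). With DAZL it was 0.15 ± 0.17 against input (limma adjusted p = 0.465), with a 95% confidence interval of -0.27 to 0.58. Both Smad6 calls held in all 18 settings in which the probe was fitted, among them spike-in scaling, which moves all probes in the direction of these calls.

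Smad7 was dim, at 0.0681 and 0.0321 in input, 0.0511 and 0.0918 in the PABP1 IP, and 0.127 and 0.0712 in the GFP IP. It was well above background on both GFP IP arrays and on PABP1 IP replicate 2, and it passed the test in no comparison (limma adjusted p = 0.144, 0.408 and 0.450).

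Read as a group, 7 of the 15 tested probes were higher with DAZL than in input and 0 were lower, from Bmpr1a, Smad1, Smad5 and Smad4. Over all 21058 tested probes, 20.7% were called higher and 32.5% lower in that comparison, 53.2% in all, and the median difference was -0.38. Between the PABP1 IP and input, 4 probes were higher and 3 lower, against 30.8% and 23.9% of all probes, 54.7% in all. These counts include the dimmer Smad1 probe (higher) and the second Smad5 probe (lower), which were not well above background on any input array. Between the GFP IP and the PABP1 IP, 10 probes were higher and 3 lower, against 24.4% and 38.4% of all probes, 62.8% in all. The filter kept 1 probe each of Bmpr2, Smad1, Smad5 and Smad7 through the GFP IP alone, so these had to read high there, and the counts are given as a description. Of the 9 probes well above background on all 6 arrays, a filter that drops probes low in any group, 4 were higher and 0 lower with DAZL than in input (limma over those probes alone, where 21.8% and 42.4% of 15576 probes were called). On the same 9 probes, 2 were higher and 4 lower in the PABP1 IP than in input, against 5470 and 4354 of the 15576. Between the GFP IP and the PABP1 IP, 6 were higher and 3 lower, against 3874 and 7114.

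**Figure D3:**
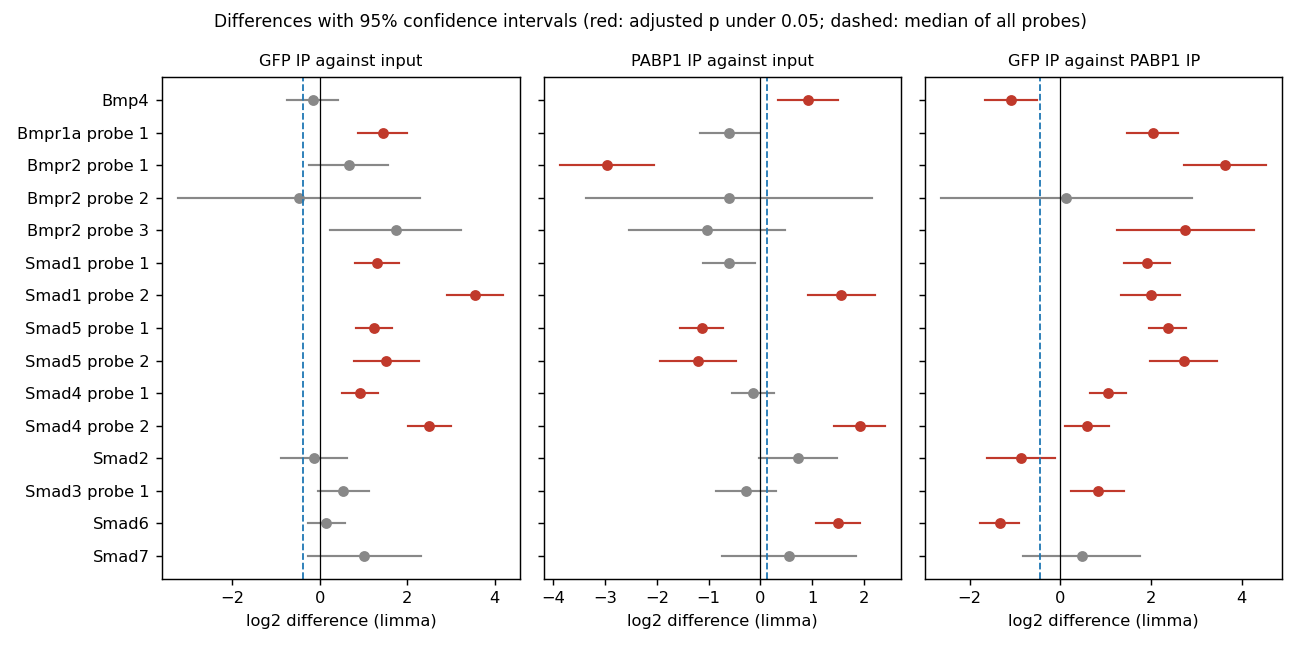
Log2 differences with 95% confidence intervals for the 15 tested probes in the 3 comparisons, red where the adjusted p was under 0.05, with the median of all probes as a dashed line. In the left panel the 7 red probes lie between 0.92 and 3.55, and in the right panel Smad6, Bmp4 and Smad2 are the red probes below 0.

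Against input, the recoveries with DAZL of the brighter probes ran in the order Bmpr1a, Smad1, Smad5 and Smad4. Their 95% confidence intervals overlapped, at 0.87 to 2.0, 0.81 to 1.82, 0.82 to 1.65 and 0.51 to 1.32, so neighbours in this order were not resolved. Between the GFP IP and the PABP1 IP, the probes measured on all arrays ran from Bmpr2 probe 1 (3.64) through Smad5 (2.37), Bmpr1a (2.04), Smad1 (1.92), Smad4 (1.05) and Smad3 (0.82) down to Smad2 (-0.87), Bmp4 (-1.09) and Smad6 (-1.34). Among all tested probes, Bmpr2 probe 1 stood at percentile 99.5 of this difference, Smad5 at 94.2, Bmpr1a at 91.4, Smad1 at 90.2 and Smad6 at 25.7. The comparisons share arrays, so their values for a gene are not independent.

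**Figure D4:**
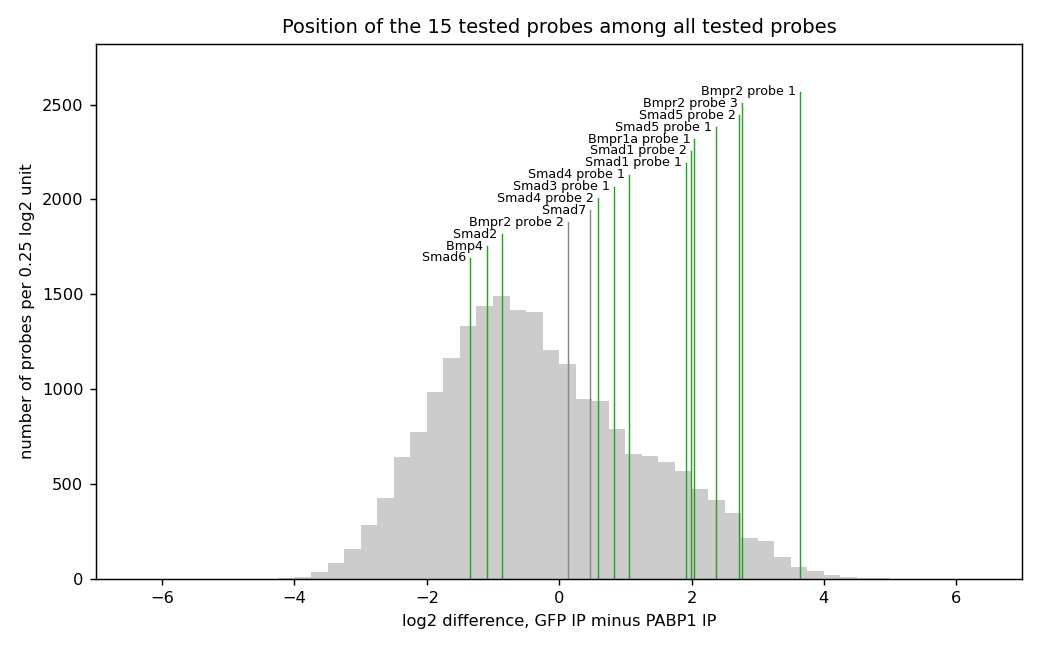
Number of tested probes by log2 difference between the GFP IP and the PABP1 IP, with a line at the value of each of the 15 probes (green where the adjusted p was under 0.05). The probes of Bmpr1a, Smad1 and Smad5 lie in the right flank, and Smad6, Bmp4 and Smad2 lie left of 0.

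Arrays of different RNA fractions have no common total, and the choice of scale moved all differences of a comparison together. When arrays were scaled to 8 spike-in control probes in place of the 75th percentile, the median difference of all probes moved by 1.02 for the GFP IP against input, by 2.26 for the PABP1 IP against input and by -1.24 between the IPs. On that scale the brighter probes of Bmpr1a, Smad1 and Smad5 lost their calls between the GFP IP and the PABP1 IP (0.80, 0.67 and 1.12; limma adjusted p = 0.178, 0.259 and 0.0538), and the brighter Smad4 probe turned to -0.19. The dimmer Smad1 probe also lost its call (0.75; limma adjusted p = 0.207), and the second Smad5 probe kept it (1.48; limma adjusted p = 0.0105). The dimmer Smad1 probe and the second Smad5 probe entered the test only through their level in the GFP IP, so their values are a description. Differences relative to the median probe do not depend on such a constant, and against input they were 1.81 for Bmpr1a, 1.69 for Smad1, 1.61 for Smad5, 1.29 for Smad4, 0.53 for Smad6 and 0.22 for Bmp4 with DAZL.

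Ratios of 2 probes on the same array also carry no scale, and only their change between arrays can be read. The log2 ratio of Smad5 over Smad6 was 2.77 and 2.70 in input, -0.09 and 0.30 in the PABP1 IP, and 3.92 and 3.71 in the GFP IP. It was thus lowest with PABP1 and highest with DAZL, and on average 1.08 higher with DAZL than in input and 3.71 higher than with PABP1. The ratio of Smad1 over Smad6 was 1.16 and 3.26 higher with DAZL, that of Smad4 over Smad2 was 1.05 and 1.92 higher, and that of Bmpr1a over Bmp4 was 1.60 and 3.13 higher. In each of these 8 comparisons the groups did not overlap, and the two-sided exact permutation p was 0.333, the smallest that 2 arrays against 2 allow. Each pair sets a member higher in the GFP IP than in the PABP1 IP over a member lower there. The separation thus restates differences given above and is a description, not a further check.

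The slides gave a check by batch. Slide 1 held both input arrays with PABP1 IP replicate 1 and GFP IP replicate 2, and slide 2 held the other PABP1 IP array and the other GFP IP array. With slide as a block, 14, 14 and 15 of the 15 probes kept their side of the threshold in the GFP IP against input, the PABP1 IP against input and the GFP IP against the PABP1 IP. Within a slide each IP is 1 array, so the values by slide carry no test. Between the GFP IP and the PABP1 IP, slide 1 and slide 2 gave 2.21 and 1.88 for Bmpr1a, 1.68 and 2.15 for Smad1, 2.45 and 2.29 for Smad5, 1.04 and 1.06 for Smad4, -1.05 and -1.13 for Bmp4, and -1.35 and -1.33 for Smad6. Direction and size were thus alike on both slides for these 6 genes.

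Other genes of the BMP and TGF-beta pathways were read from 5 lists of 95 genes, of which 72 had a tested probe. Among their 99 tested probes, 34 were higher and 16 lower with DAZL than in input, against 20.7% and 32.5% of all probes, with a median difference of 0.30 beside -0.38 over all probes. The filter can admit a pathway probe through 1 group alone, which then had to read high there. Of the 72 pathway probes well above background on all 6 arrays, 29 were higher and 16 lower, against 21.8% and 42.4% of all such probes, and the counts on these probes follow each list. With spike-in scaling 50 were higher and 1 lower, so the lower calls below are relative to the 75th percentile. The receptor list, which excludes Bmpr1a and Bmpr2, had 7 of 13 probes higher and 3 lower, and 7 of 10 and 3 among probes well above background on all arrays. Tgfbr1, the type I TGF-beta receptor, read 0.670 and 0.674 in input, 0.369 and 0.484 in the PABP1 IP, and 3.70 and 3.59 in the GFP IP. It was 5.42-fold above input with DAZL (2.44 ± 0.19; limma adjusted p = 0.00158), as was Acvr2b, an activin type II receptor, by 2.47-fold (1.31 ± 0.18; limma adjusted p = 0.00379). Acvr1, a type I receptor for BMPs, was higher in both IPs, by 3.91-fold with DAZL (limma adjusted p = 0.00178) and 3.51-fold with PABP1 (limma adjusted p = 0.00125). Amhr2, 1 of the 3 lower receptor probes, was 2.32-fold below input with DAZL (limma adjusted p = 0.00425). It was 2.45-fold above input with PABP1 (limma adjusted p = 0.00277).

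The ligand list had 1 of 19 probes higher and 8 lower with DAZL than in input, and 1 of 15 and 7 among probes well above background on all arrays. The lower calls were thus near the shares of all probes given above. Lefty2, an antagonist of NODAL, was 2.82-fold higher (limma adjusted p = 0.00532). Both Bmp7 probes were lower, by 1.83-fold and 1.99-fold (limma adjusted p = 0.00888 and 0.00695), Nodal was 2.09-fold lower (limma adjusted p = 0.00467) and Gdf3, a BMP family ligand of stem cells, 2.47-fold lower (limma adjusted p = 0.00569). Both Bmp7 probes were, like the Bmp4 probe, higher in the PABP1 IP than in input, each by 1.54-fold (limma adjusted p = 0.0238 and 0.0275).

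The list of SMAD regulators, with Smad9, had 15 of 38 probes higher and 4 lower with DAZL than in input, and 11 of 26 and 4 among probes well above background on all arrays. Tgif1, a repressor that binds SMAD2 and SMAD3 complexes, read 0.299 and 0.251 in input, 1.70 and 1.64 in the PABP1 IP, and 3.62 and 3.33 in the GFP IP, and was 12.7-fold above input with DAZL (3.66 ± 0.17; limma adjusted p = 0.00147). Of 3 tested probes of Smurf2, a ubiquitin ligase for SMADs and receptors, 1 was 6.16-fold higher with DAZL (limma adjusted p = 0.00263) and 1 was not called (limma adjusted p = 0.152). The other entered the test through the GFP IP alone and was at least 2.63-fold above input. Of 5 tested probes of Usp15, a deubiquitinase of SMADs, 1 was 2.09-fold lower with DAZL than in input (limma adjusted p = 0.0304) and 3 were not called (-0.53, -0.39 and -0.12; limma adjusted p = 0.151, 0.181 and 0.781). The other Usp15 probe entered the test through input alone and was at least 8.47-fold below input with DAZL.

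Among target genes of the pathway, 9 of 16 probes were higher with DAZL than in input and 0 were lower, and 8 of 13 and 1 among probes well above background on all arrays. The Id genes, direct BMP-SMAD targets, did not move alike. Both Id1 probes were higher with DAZL, one by 3.36-fold (limma adjusted p = 0.0226) and one by at least 2.50-fold (limma adjusted p = 0.0197), while Id3 did not pass (-0.87 ± 0.29; limma adjusted p = 0.0522). In the PABP1 IP, both Id2 probes and Id3 were above input, by 5.93-fold, 2.19-fold and 2.17-fold (limma adjusted p = 0.00230, 0.0131 and 0.0233). The Id2 probe with the larger fold was well above background on 1 of 2 input arrays. Prdm1, a germ cell regulator downstream of BMP signalling, was 3.87-fold above input with DAZL (1.95 ± 0.24; limma adjusted p = 0.00290) and 2.34-fold below input with PABP1 (-1.23 ± 0.24; limma adjusted p = 0.00864). Of the listed genes, 23 had no tested probe, among them Bmp2, Bmp8b, Bmpr1b, Acvr2a and Smad9, so the BMP transducer SMAD9 was not read here.

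**Figure D5:**
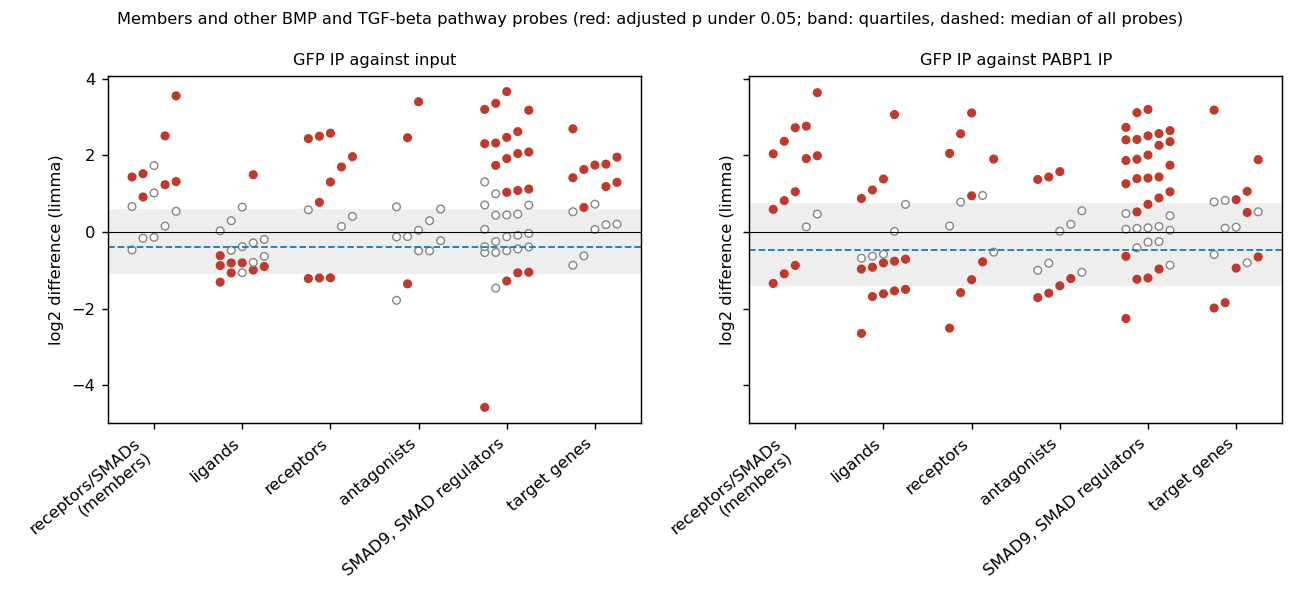
Log2 differences of the members and of the other pathway probes by list, for the GFP IP against input (left) and against the PABP1 IP (right), filled red where the adjusted p was under 0.05, with the median (dashed) and quartiles (band) of all probes. In the left panel 8 of 19 ligand probes are red and below 0, and 7 of 13 receptor probes are red and above 0.

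The profiles most like 5 of the members over the 6 arrays were found by the Euclidean distance between log2 scaled signals centred on the mean of each probe. For Smad5 these were Nek7, Cdyl2 and Epc2 at distances of 0.13, 0.19 and 0.21. For Smad6 they were Slc48a1, Castor1 and Ints12 at 0.12, 0.18 and 0.18, and for Bmp4 they were Map2k6, Lrrc42 and Alg3 at 0.17, 0.18 and 0.18. For Bmpr1a they were Serinc5, Dpy19l1 and Ikbip at 0.25, 0.26 and 0.28, and for Smad1 Mboat7 was nearest at 0.20. With 6 arrays in 3 groups, such likeness is a description of these arrays.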

How the data were processed

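Per the labels, all samples were labelled with Cy3 for one-colour arrays. The 6 scanner files, as deposited, give for every spot its intensity and a background-subtracted processed signal made with Agilent Feature Extraction 9.1.3.1, per the file headers. The authors also deposited a table of group means and standard errors of signal with a score per row and fold ratios, which entered no test. Control and outlier spots were left out, the log2 processed signals of a probe's spots were averaged, and each array's 75th percentile was subtracted. A probe was tested where 1 or more groups had it well above background on both of their arrays (21058 probes). The lmFit and eBayes functions of limma 3.58.1 (R 4.3.3) were applied to the 3 groups together, leaving 3 residual degrees of freedom. P-values are two-sided and adjusted over all tested probes by Benjamini-Hochberg, with 0.05 as the threshold. Folds written "at least" use, for a group with no array well above background, on each array the higher of the probe's own signal and the dimmest signal that was well above background. Of the 19 member probes, 15 matched their gene through an accession in a RefSeq gene table (assembly GRCm38.p6, used for names only), and 4 keep the name in the files. All member probes are described; from each pathway list, the rule takes up to 3 called genes per comparison with the largest differences between groups that do not overlap, and a set of receptors, ligands, Smurf and Id genes, of which the text gives some. Members, lists and tests were chosen with earlier results of these data known. The analysis was tested on simulated data. Alternatives were a normexp background correction, scaling to the median or to spike-in probes, quantile normalization and cyclic loess. Further ones were no filter, only probes well above background on all 6 arrays, 1 probe per gene, slide, replicate number and leaving out each array.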

Additional observations from a re-analysis of the deposited data

How the results depend on the processing

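Signals came from 2 arrays per group, so precision is limited by their number, and dim probes by signal over background. The cause of the changes below was not tested. Over all tested probes, the numbers called were 11195 in the GFP IP against input, 11517 in the PABP1 IP against input and 13222 in the GFP IP against the PABP1 IP. The higher and lower calls of GFP IP against input (4361 and 6834) became 5827 and 2230 with scaling to the median, 5214 and 5461 with quantile normalization, 5733 and 4405 with cyclic loess, and 6574 and 520 with spike-in scaling, 7094 in all. For the PABP1 IP against input (6482 and 5035) spike-in scaling gave 17593 and 425, 18018 in all. Between the IPs (5146 and 8076) the same 4 scalings gave 6035 and 5217, 6108 and 6362, 7019 and 5312, and 1190 and 13336. The median of all differences moved by 0.59, 0.26, 0.39 and 1.02 in the GFP IP against input under these 4 scalings, by 0.18, -0.04, -0.13 and 2.26 in the PABP1 IP against input, and by 0.41, 0.31, 0.53 and -1.24 between the IPs. With no filter 21803 probes and 76 pathway probes, against 50, were called in the GFP IP against input. Leaving out 1 array gave 5699 to 11370, 7490 to 11274 and 10840 to 12414 calls over all probes, 36 to 53, 32 to 53 and 45 to 64 over pathway probes (50, 53 and 66 with all arrays), and 6 to 8, 5 to 9 and 10 to 12 over member probes (7, 7 and 13 with all arrays). The lowest counts over all probes were 5699 and 6531 in the GFP IP against input, and 7649 and 7490 in the PABP1 IP against input, without input replicate 1 and replicate 2, which also gave 32 and 35 pathway probes in the latter.

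Called member probes in the GFP IP against input numbered 11 with scaling to the median, 11 with spike-in scaling, 4 with 1 probe per gene and 4 with probes well above background on all 6 arrays. In the PABP1 IP against input they numbered 4 with normexp and 13 with spike-in scaling, which gave 84 called pathway probes, and between the IPs 6 with spike-in scaling. Spike-in scaling turned the PABP1 IP differences from input of Bmpr1a (1.65), Bmpr2 probes 2 and 3 (1.66 and 1.23), the brighter Smad1 (1.66), Smad3 (1.98), the brighter Smad4 (2.12) and both Smad5 probes (1.13 and 1.06). It turned GFP IP against input for Bmp4 (0.85), Bmpr2 probe 2 (0.55) and Smad2 (0.88), and between the IPs it turned Bmpr2 probe 2 (-1.11), Smad3 (-0.42), both Smad4 probes (-0.19 and -0.65) and Smad7 (-0.77). With normexp, GFP IP against input turned for Bmpr2 probe 3 (-0.26), Smad3 (-0.077), Smad5 probe 2 (-0.061), Smad6 (-0.13) and Smad7 (-0.56). It also turned the PABP1 IP against input for Smad1 probe 2 (-0.39), the brighter Smad4 (0.28) and Smad7 (-0.39), and between the IPs Bmpr2 probe 2 (-0.38) and Smad7 (-0.17). For GFP IP against input, Bmp4 turned with cyclic loess (0.085), quantile normalization (0.028), scaling to the median (0.43), slide as a block (0.039), slide 1 alone (0.059) and without GFP IP replicate 1 (0.059, and -0.38 without replicate 2). Smad2 turned with cyclic loess (0.095), scaling to the median (0.46) and without GFP IP replicate 2 (0.21, and -0.48 without replicate 1), and Bmpr2 probe 2 with scaling to the median (0.13), slide 1 alone (0.032) and without GFP IP replicate 1 (0.032, and -0.97 without replicate 2). Scaling to the median turned the brighter Smad4 probe in the PABP1 IP against input (0.042). Without PABP1 IP replicate 1, Bmpr2 probe 2 turned to 1.10 against input (-2.30 without replicate 2) and to -1.56 between the IPs (1.83 without replicate 2), where it was -0.36 without GFP IP replicate 2. None of the values that turned under cyclic loess, quantile normalization, scaling to the median or slide had passed the test with all arrays and the 75th percentile.

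The labels do not say whether the replicate numbers pair the samples. Deviations of same-numbered arrays correlated at -0.02 (GFP IP with input), 0.15 (PABP1 IP with input) and -0.62 (between the IPs). Same-numbered IP arrays lay on different slides, so the last value cannot separate pairing from slide. With the replicate number as a block, 9392, 10109 and 11884 probes were called, and 7, 7 and 10 member probes, the second Smad4 probe (limma adjusted p = 0.0702), Smad2 (0.0944) and Smad3 (0.0568) losing their calls between the IPs. With the 4 IP arrays alone, 7718 probes were called with numbers paired as labelled, 16081 with the numbers crossed, and 11910 with no block. The crossed alternative was chosen after seeing the data, and it groups these 4 arrays exactly as the slides do.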

Other observations

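The authors' deposited table gives 1 mean per group for most member probes, on a scale its header describes as relative to the median of each array. In the authors' deposited table, the ratio of the GFP IP to input was 5.45 for the brighter Bmpr1a probe, 2.14 for Smad1, 3.14 for Smad5 and 3.69 for Smad4. The 10 Bmp4 values of the authors' deposited table ran from 3.67 to 7.47 in input, from 6.47 to 11.2 in the PABP1 IP and from 2.55 to 4.12 in the GFP IP. For Smad6 the authors' deposited table gives 9.16 in input, 16.6 in the PABP1 IP and 8.77 in the GFP IP. For Smad2 the authors' deposited table gives 2.09 in input, 11.5 in the PABP1 IP and 9.60 in the GFP IP, a GFP IP to input ratio of 4.59. The scanner files gave a GFP IP value 1.10-fold below input on the scale of the 75th percentile and a log2 difference of 0.46 above input with scaling to the median. Bmp4 also differed: its GFP IP to input ratios in the authors' deposited table ran from 0.443 to 0.806, while the scanner files with scaling to the median put the GFP IP above input. Over 8144 probes, the log2 means of the authors' deposited table correlated with the arrays of their own group at 0.859 to 0.919, beside 0.980 to 0.991 between replicate arrays over the tested probes. With the arrays of other groups these means correlated at 0.722 to 0.866, and the input arrays correlated at 0.865 and 0.866 with the PABP1 IP means of the authors' deposited table, beside 0.862 and 0.859 with its input means. The cause of these differences was not tested.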
